A study of Homo sapiens with 4 samples.

Results

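The baseline transcriptome of untreated MDA-MB-231 cells was described from the 2 untreated libraries of a series of 4. They were chosen by their sample titles and source descriptions alone. MDA-MB-231 is an established human triple-negative breast cancer line, grown here without any agent or control RNA named in the labels. The other 2 libraries, labelled siPCBP2, were not used. Nothing in the labels says whether the untreated libraries came from separate cultures, so their spread may be technical.

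Poly(A)-selected RNA had been sequenced in paired ends. Of the deposited table, 7698 protein-coding genes with 1 value per library were described, on 23 nuclear chromosomes and the mitochondrial genome. No unit stands in the header, and the values were taken to be FPKM, fragments scaled by transcript length and by a library's mapped fragments. Had they been another unit per length and per library total, such as TPM, ratios between genes of a library and ranks would stand, while the levels would change by 1 common factor per library. The values summed to 371693 and 376347 over the listed genes, and sequencing depth is unknown. How genes came to be listed is not stated in the labels, and a gene without a value is not read as silent.

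Triple-negative breast cancers lack the oestrogen and progesterone receptors and amplified HER2, the product of ERBB2. Within them, MDA-MB-231 is known as a mesenchymal-like line: its cells carry vimentin filaments and CD44, have little of the epithelial junction machinery, secrete proteases and cytokines, and grow with an activated RAS to ERK pathway. A level of mRNA per length compares genes within the same RNA, and says nothing of protein.

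Markers for the line were chosen with earlier results of these data known. Their levels therefore describe the cells and do not test the label. Of 7 mesenchymal markers, 6 were listed, VIM, CD44, AXL, ZEB1, SNAI2 and FN1, with summed levels of 1231 and 1198 FPKM in untreated 1 and untreated 2. Of 8 epithelial markers, 5 were listed, EPCAM, CLDN4 and the keratins KRT8, KRT18 and KRT19, with sums of 236 and 220.4 FPKM. ERBB2 was the 1 listed of 5 luminal and hormone receptor markers (15.2 and 11.9 FPKM), and EGFR the 1 listed of 5 basal markers (78.3 and 60.4 FPKM). No marker of immune and blood cells or of fibroblasts and endothelium was listed, 0 of 5 in each, and the others of these short lists were not analysed here. No listed marker stood at 0. In RNA from a bulk culture, fewer cells with a transcript and less transcript per cell cannot be told apart.

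The libraries agreed closely for most genes. Across the 7698 genes, log2(FPKM + 1) values had a Pearson's r of 0.969 and a Spearman's rho of 0.966 as a description; genes are not independent replicates and the points share their cells and protocol. Medians were 16.98 and 16.97 FPKM, and of genes above 0 not a single one had equal values. Among 7683 genes with a mean of at least 1 FPKM, 183 were at least 2-fold apart, which is 2.38%, with 91 higher in untreated 2 (1.18%) and 92 higher in untreated 1 (1.2%). Agreement followed level. The median fold between the libraries was 1.05 for the 20 genes at or above 1000 FPKM, 1.07 for the 394 from 100 to 1000, 1.102 for the 5175 from 10 to 100 and 1.18 for the 2094 from 1 to 10 FPKM. The share at least 2-fold apart was 0% in the first of these tiers, 1.02% in the next, 1.12% from 10 to 100 and 5.44% from 1 to 10 FPKM. Across 5571 nuclear genes with a mean of at least 10 FPKM, the log2 ratio of untreated 2 to untreated 1 had a Spearman's rho of 0.134 with the GC content of the longest transcript. Its median ran from -0.03 in the fifth of genes with the lowest GC to 0.05 in the fifth with the highest.

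**Figure D1:**
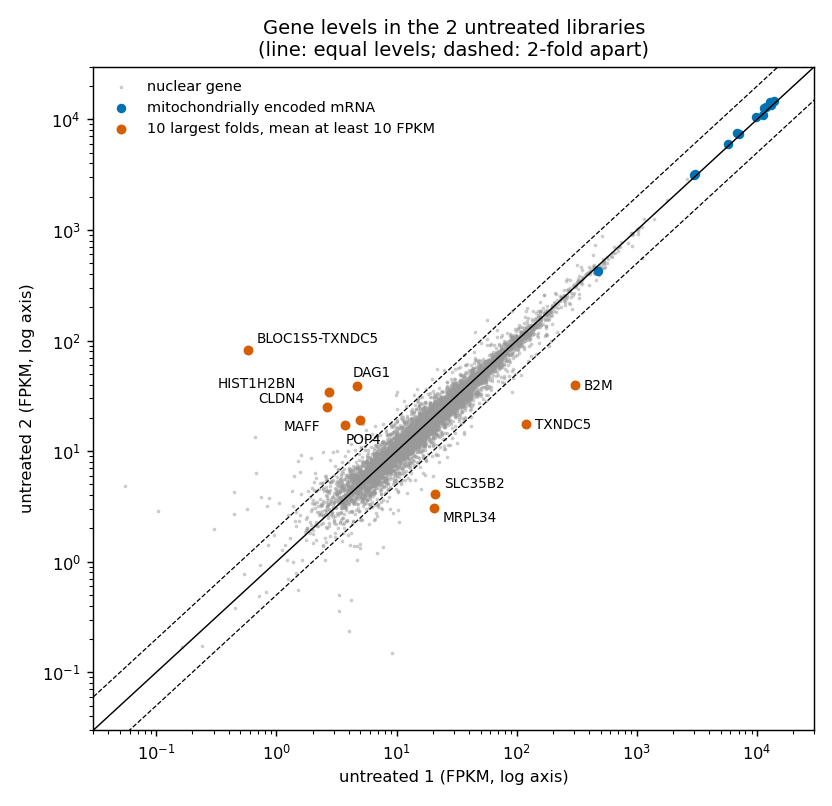
Each point is a gene, with its level in untreated 1 on the x axis and in untreated 2 on the y axis, both in FPKM on log axes; genes listed at 0 in a library are not drawn. Points crowd along the line of equal levels, the 13 mitochondrially encoded mRNAs (blue) lie close to it, and the 10 genes with the largest fold among those with a mean of at least 10 FPKM (orange) lie outside the dashed 2-fold lines, among them B2M at 304 and 39.6 FPKM.

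A few well expressed genes did not agree. B2M, the light chain of MHC class I (chromosome 15, 44711477 to 44718877, plus strand of hg38), measured 304 and 39.6 FPKM, 7.69-fold apart. It was the 1 gene of the antigen presentation list at least 2-fold apart. TXNDC5, a disulfide isomerase-like protein of the endoplasmic reticulum, measured 118.7 and 17.6 FPKM. BLOC1S5-TXNDC5, an annotated readthrough gene that shares exons with TXNDC5 on the same strand, measured 0.578 and 82.5 FPKM, the opposite order. Their sums, 119.3 and 100.1 FPKM, lay far closer together than either gene's own values. HIST1H2BN, a histone gene that shares exons with HIST1H2AL, measured 2.75 and 34.3 FPKM.

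The tight junction gene CLDN4 measured 2.63 and 25.3 FPKM, and DAG1, which encodes dystroglycan, a receptor for laminin, 4.64 and 38.8 FPKM. Higher in untreated 1 were MRPL34 of the mitochondrial ribosome (20.3 and 3.08 FPKM) and SLC35B2, a Golgi transporter of the sulfate donor (21.1 and 4.12 FPKM). The small MAF transcription factor gene MAFF measured 3.70 and 17.2 FPKM and the RNase P subunit gene POP4 4.99 and 19.0 FPKM. For these 10 genes the mean of both libraries describes neither. In untreated 1, 9 genes were listed at 0, and in untreated 2, 5 genes; the highest value opposite a 0 was 18.9 FPKM.

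Mitochondrially encoded mRNAs, which code for subunits of the respiratory chain and ATP synthase, dominated the table. The 13 genes held 29.7% of the summed FPKM in untreated 1 and 31.2% in untreated 2, and they filled ranks 1 to 12 of the 7698 listed genes. MT-ND4 of complex I led with 13801 and 14782 FPKM. MT-CO1 of cytochrome c oxidase measured 13054 and 13350.1 FPKM, and MT-CYB of complex III, at rank 11, 3069.6 and 3212 FPKM. The exception was MT-ND6, the 1 mRNA copied from the light strand, at rank 63 with 474 and 424 FPKM, or 0.0344 and 0.0287 of the MT-ND4 level.

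Several mitochondrial genes overlap on a strand, and fragments from the shared bases may have been assigned to either gene. MT-ATP8, which shares bases with MT-ATP6, measured 12889.9 and 14289 FPKM against 11425 and 12734 FPKM for MT-ATP6. MT-ND4L, which overlaps the start of MT-ND4, measured 11231 and 10996 FPKM. MT-CO3 also overlaps MT-ATP6, while MT-CO1, MT-CO2, MT-CYB and MT-ND1, ND2, ND3, ND5 and ND6 share no exon with another gene on their strand.

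Among nuclear genes the level fell off steeply. The 10 highest held 5.06% and 5.10% of the nuclear sum, the 30 highest 10.6% in each library, and the 100 highest 21.2% and 21.5%. Of all 7698 listed genes, 414 had a mean at or above 100 FPKM, while the median gene stood at 17.0 FPKM. Counts of genes at or above 100 FPKM in the lists below are to be read beside that share. The 30 highest nuclear genes of untreated 1 and of untreated 2 shared 27 members, and the 100 highest shared 95.

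**Figure D2:**
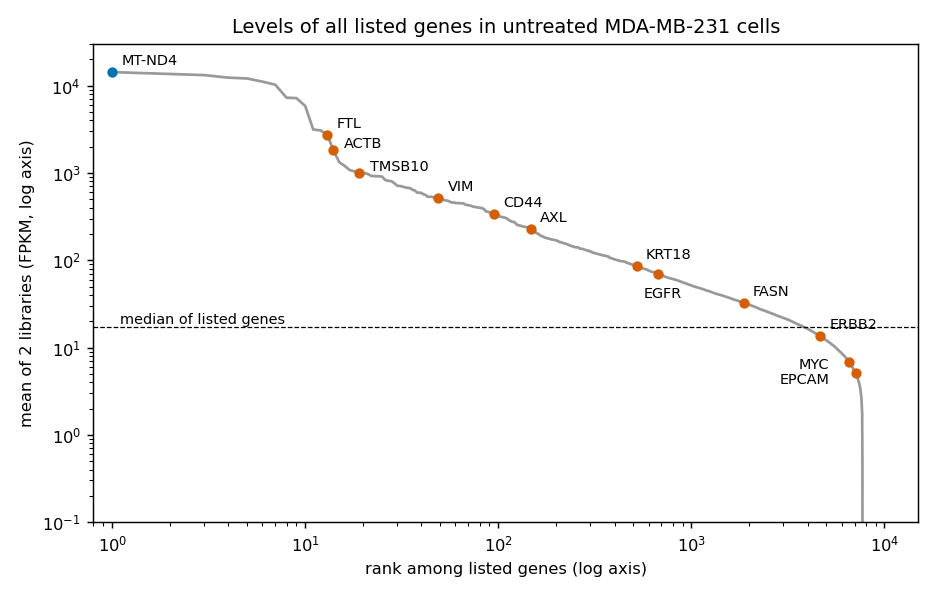
The curve gives the mean of the 2 libraries in FPKM against the rank among the 7698 listed genes, both on log axes, with named genes as points. After the plateau of mitochondrially encoded mRNAs led by MT-ND4, the curve falls through FTL at rank 13, VIM at rank 49 and AXL at rank 148 to ERBB2, MYC and EPCAM, which lie under the dashed median of 17.0 FPKM.

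The highest nuclear gene was FTL, the light chain of the iron store ferritin (chromosome 19, 48965301 to 48966878, plus strand), at 2599.9 and 2879 FPKM, or 153 and 170 times the median gene of its library. ACTB, cytoplasmic beta actin (chromosome 7, 5527151 to 5563784, minus strand), followed with 1775 and 1859 FPKM, then the ribosomal protein gene RPS24 with 1389 and 1269 FPKM. EEF1A1, which carries aminoacyl-tRNA to the ribosome, measured 1153 and 1256 FPKM and FTH1, the ferritin heavy chain with the ferroxidase site, 1099 and 1059 FPKM. Iron storage, actin and translation thus supplied the highest nuclear mRNAs.

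Of the 30 highest nuclear genes, 12 coded for ribosomal proteins, 2 for linker histones, HIST1H1E (917 and 934 FPKM) and HIST1H1C (917 and 897 FPKM), and several for actin-binding proteins. TMSB10 and TMSB4X, small thymosins that bind actin monomers, measured 999 and 1012 FPKM and 1028 and 973 FPKM. PFN1, profilin, which loads actin monomers onto filaments, measured 513 and 876 FPKM, so it was 1.71-fold apart between libraries. Chaperones were also among the 30, with the constitutive HSP70 gene HSPA8 at 899 and 936 FPKM, HSP90AB1 at 721 and 697 FPKM and the calcium-binding lectin CALR at 623 and 564 FPKM. NPM1, a nucleolar chaperone, measured 836 and 767 FPKM, and the calcium-binding S100A6 658 and 622 FPKM. The matricellular gene CYR61 (also CCN1), known as a target of YAP, was the highest gene of the secreted lists, at 611 and 578 FPKM.

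Several of these genes have many processed pseudogenes named after them in GENCODE release 29, 61 for GAPDH, 49 for RPL12, 45 for NPM1, 37 for EEF1A1 and 16 for FTL, and their values depend on how fragments that match several copies were assigned. Of genes below the 30 highest, named after their values were seen, SAA1, a secreted acute-phase protein, measured 565 and 500.4 FPKM. MT2A, a metal-binding metallothionein, measured 449 and 448 FPKM, and ANKRD1, known as a target of YAP, 343 and 331 FPKM.

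The bases just before the start of some of these genes are shown because several of the most abundant ones share a short word there. The word TATA, on the gene's strand and beginning 40 to 20 bases before the RefSeq start (GRCh38.p14), is marked in capitals, and its copies may overlap each other. Each line gives the 60 bases that end 1 base before the start. Gene extents in the deposited table can begin elsewhere than in RefSeq.
EEF1A1, chr6:73521033-73521092, minus strand: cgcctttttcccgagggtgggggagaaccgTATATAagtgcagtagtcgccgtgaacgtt
EEF2, chr19:3985464-3985523, minus strand: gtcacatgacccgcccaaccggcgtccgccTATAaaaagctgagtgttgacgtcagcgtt
NPM1, chr5:171387789-171387848, plus strand: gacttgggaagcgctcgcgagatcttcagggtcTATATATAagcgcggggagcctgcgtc
CALR, chr19:12938549-12938608, plus strand: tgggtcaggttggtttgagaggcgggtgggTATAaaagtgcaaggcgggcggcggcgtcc
S100A6, chr1:153535992-153536051, minus strand: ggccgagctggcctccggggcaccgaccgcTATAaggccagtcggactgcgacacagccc
TMSB10, chr2:84905596-84905655, plus strand: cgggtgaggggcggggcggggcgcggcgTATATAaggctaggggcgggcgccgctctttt
TMSB4X, chrX:12975050-12975109, plus strand: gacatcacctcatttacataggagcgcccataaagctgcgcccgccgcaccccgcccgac
VIM, chr10:17228181-17228240, plus strand: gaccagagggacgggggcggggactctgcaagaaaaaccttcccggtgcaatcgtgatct

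The word was found in 6.45% of all 27305 promoters of the same length and in 3.85% of the 6208 listed nuclear genes with a promoter sequence. It was found in 9 of the 22 highest nuclear genes with a sequence. Because only 73.3% of the 30 highest matched a sequence, a share over the 30 would be void and is not given. TMSB10, with the word, and TMSB4X, without it, were 1.005-fold apart by their means. The TMSB4X line holds cataaa in the same window, which the search did not count. They are 1 pair of genes, and a relation of the word to level was not tested. The longer TATAAA, which holds TATA, was in 2.55% of all promoters and, among the lines above, in CALR and EEF2.

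Translation and protein folding held much of the remaining high ranks. The 82 listed ribosomal protein genes, found by symbol, had a median of 288 FPKM and held 7.69% and 7.26% of the summed FPKM, and 74 of them stood at or above 100 FPKM. None was at least 2-fold apart between libraries, against 2.38% of all genes with a mean of at least 1 FPKM. At the level of most of them the share was smaller, 1.02% of genes from 100 to 1000 FPKM. A count of 0 is near that share and does not set these genes apart. RPS2 came near the 2-fold limit with 1103.5 and 554 FPKM, 1.99-fold apart. RPS27L, a diverged copy of RPS27, was the lowest with 20.01 and 13.1 FPKM. Among elongation factors, EEF2, which moves the ribosome along the mRNA, measured 444 and 735 FPKM and EEF1G 342.5 and 346 FPKM. TPT1, a translationally controlled protein, measured 184 and 88.8 FPKM, at least 2-fold apart.

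All 30 chaperone and folding genes of the list were listed, with a median of 145 FPKM, and 20 stood at or above 100 FPKM. The cyclophilin PPIA measured 429 and 599.6 FPKM, HSPA5 (BiP), the HSP70 of the endoplasmic reticulum, 439 and 405 FPKM, and HSP90B1 394 and 412 FPKM. The lowest were the heat-inducible genes, with 42.5 and 40.7 FPKM for DNAJB1, 46.4 and 49.2 FPKM for HSPA1B and 33.4 and 32.8 FPKM for HSPA1A; HSPA1A and HSPA1B are near-identical copies, so their split is uncertain.

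Of histone genes, 52 were listed by symbol, with a median of 81.8 FPKM and 22 at or above 100 FPKM. Most histone mRNAs made in S phase carry no poly(A) tail, and genes of a histone class can be near-identical, so these levels depend on selection and assignment.

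The actin cytoskeleton was fully represented, with 33 of 33 genes listed, a median of 109 FPKM and 17 at or above 100 FPKM. CFL1, cofilin, which severs filaments, measured 437 and 479 FPKM, and FLNA, filamin A, which cross-links them, 293 and 309 FPKM. MYH9, the heavy chain of nonmuscle myosin IIA, measured 248 and 253 FPKM, and MSN, moesin, which ties actin to the membrane, 176 and 175 FPKM. The lowest of the list were TAGLN, transgelin, at 10.6 and 17.1 FPKM and TPM2, beta tropomyosin, at 7.09 and 8.75 FPKM. ARPC5, a subunit of the ARP2/3 complex, was at least 2-fold apart at 10.03 and 34.0 FPKM.

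Mesenchymal genes ranked far above epithelial ones. The 23 listed of 30 mesenchymal genes had a median of 85.2 FPKM at a median rank of 528, with 10 at or above 100 FPKM, and the 13 listed of 36 epithelial genes a median of 24.4 FPKM at a median rank of 2633, with 0 at or above 100 FPKM. The median of all listed genes was 17.0 FPKM, and 414 of the 7698 stood at or above 100 FPKM. A count of 0 among 13 epithelial genes is near that share. Since more of the epithelial than of the mesenchymal genes had no value, these medians cover only the listed members.

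VIM, vimentin, the intermediate filament of mesenchymal cells (chromosome 10, 17228259 to 17237593, plus strand), measured 536 and 491 FPKM. CD44, the hyaluronan receptor (chromosome 11, 35138870 to 35232402, plus strand), measured 328 and 352 FPKM. FOSL1, the AP-1 subunit FRA1, stood at 209 and 267 FPKM. Their values in both libraries exceed every listed epithelial gene.

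Among the factors that drive the mesenchymal state, SNAI2 (SLUG) measured 28.2 and 29.6 FPKM, ZEB1 27.7 and 11.5 FPKM and ZEB2 5.28 and 6.27 FPKM. ZEB1 was the 1 gene of the list at least 2-fold apart between libraries. Low structural members were TGFB1I1 (8.71 and 9.84 FPKM), LOX (10.4 and 10.8 FPKM), which cross-links collagen, and TAGLN. Fibronectin, FN1, measured 92.9 and 79.2 FPKM and caveolin-1, CAV1, 85.5 and 84.8 FPKM.

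Epithelial genes that were listed were mainly keratins. KRT18 measured 85.5 and 86.2 FPKM, its partner KRT8 93.3 and 54.95 FPKM, KRT7 52.5 and 45.5 FPKM and KRT19 49.5 and 48.6 FPKM. VIM exceeded KRT18 6.28-fold and 5.70-fold in the same libraries. KRT18 and KRT8 have 66 and 50 processed pseudogenes named after them. The desmosomal DSP measured 40.1 and 36.4 FPKM, and the adhesion molecule EPCAM was the lowest of the list at 4.84 and 5.31 FPKM, near AP1M2 (7.499 and 6.345 FPKM) and LSR (8.4004 and 4.48 FPKM). VIM exceeded EPCAM 110.8-fold and 92.5-fold.

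Luminal and basal lineage genes had few listed members. The hormone receptor and luminal list had 5 of 20, led by KRT18, which the epithelial list also holds, and by XBP1, a factor of secretory cells (28.6 and 36.7 FPKM). MLPH, melanophilin, measured 31.9 and 23.7 FPKM, and CA12, a membrane carbonic anhydrase, was the lowest at 3.35 and 4.51 FPKM. The basal list had 6 of 19, led by the laminin receptor chain ITGA6 (114 and 108 FPKM), EGFR and the laminin chain LAMB3 (51.8 and 56.2 FPKM). The integrin chain ITGB4 measured 11.3 and 15.9 FPKM and the transcription factor FOXC1 6.55 and 8.12 FPKM.

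Intermediate filament genes, a list of 19 that shares VIM and keratins with the lists above, had 12 listed. The nuclear lamins LMNA (50.9 and 51.0 FPKM), LMNB2 (48.3 and 51.3 FPKM) and LMNB1 (34.4 and 32.6 FPKM) lay close together. KRT80 measured 14.2 and 20.9 FPKM, and the lowest were KRT81 (7.29 and 6.42 FPKM) and SYNM, synemin (6.37 and 7.17 FPKM).

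**Figure D3:**
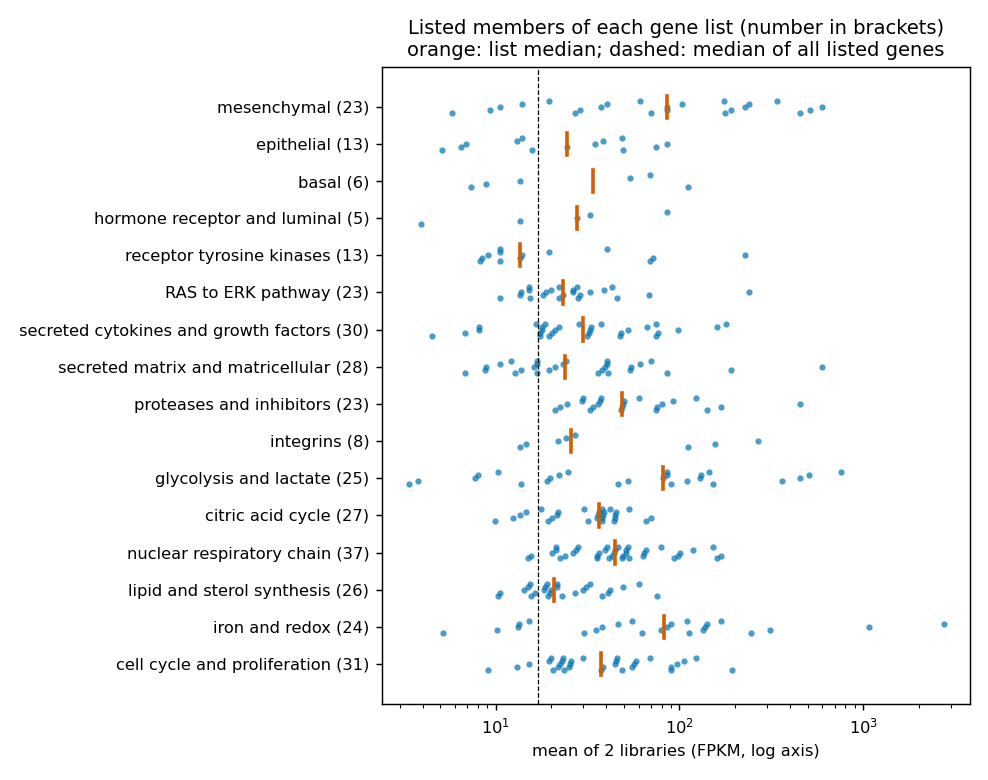
Each point is a listed gene at the mean of its 2 libraries in FPKM on a log axis, in rows by gene list with the number of listed genes in brackets; orange bars mark list medians and the dashed line the median of all listed genes, 17.0 FPKM. The mesenchymal, glycolytic and iron and redox medians, 85.2, 81.0 and 82.4 FPKM, lie farthest to the right of the lists drawn, and the receptor tyrosine kinase median, 13.6 FPKM, lies left of the dashed line.

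Receptor tyrosine kinases as a list were low, with 13 of 28 listed at a median of 13.6 FPKM. AXL, the GAS6 receptor (chromosome 19, 41219203 to 41261766, plus strand), was the exception at 218 and 234 FPKM, and the 1 member at or above 100 FPKM. It exceeded EGFR 2.78-fold and 3.88-fold. MET, the hepatocyte growth factor receptor, measured 90.9 and 53.4 FPKM, above EGFR in untreated 1 and below it in untreated 2, and EPHA2 35.3 and 45.2 FPKM. The lowest were IGF1R (7.599 and 10.5 FPKM), the collagen receptor DDR1 (8.18 and 8.74 FPKM) and EPHB4 (9.04 and 7.4999 FPKM).

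Within the RAS to ERK pathway, 23 of 29 genes were listed at a median of 23.4 FPKM, and none fell under 10 FPKM by its mean. NRAS and HRAS could not be ordered, at 27.1 and 30.7 FPKM against 27.2 and 25.3 FPKM. MAP2K2 (MEK2) led MAP2K1 (MEK1), with 44.7 and 46.7 FPKM against 13.6 and 13.996 FPKM. MAPK3 (ERK1) measured 15.3 and 15.6 FPKM.

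Targets and brakes of the pathway followed. FOSL1 led the list, PHLDA1, an ERK-induced gene, measured 61.2 and 75.7 FPKM, and the ERK phosphatase genes DUSP5, DUSP6 and DUSP4 28.7 and 27.7, 20.4 and 23.9, and 18.8 and 18.9 FPKM. Sprouty genes SPRY4 and SPRY2 stood at 19.3 and 20.9 FPKM and 16.1 and 14.2 FPKM. The RAS GTPase-activating gene NF1 was the lowest at 11.9 and 9.10 FPKM, after SPRED1 at 13.9 and 13.4 FPKM.

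Among the 33 listed of 40 transcription factors, the architectural and RNA-binding factors came first. YBX1, the Y-box protein, measured 534 and 497 FPKM and HMGA1, an architectural chromatin protein, 404 and 427 FPKM. After FOSL1 came HIF1A, the oxygen-regulated subunit of HIF, at 113.9 and 107.8 FPKM, and ETS1 at 73.6 and 46.3 FPKM. Low were ATF3, a stress-induced factor, at 2.21 and 2.10 FPKM, MYC at 6.13 and 7.42 FPKM and TEAD4 at 8.82 and 7.18 FPKM. NFE2L2 (NRF2) was at least 2-fold apart, with 41.5 and 16.8 FPKM.

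The secretome was led by matricellular mRNAs, with cytokines lower. Of 39 matrix genes 28 were listed, at a median of 23.7 FPKM, and 2 stood at or above 100 FPKM, CYR61 and THBS1, thrombospondin-1, with 189 and 190.2 FPKM. The growth factor CTGF (also CCN2) measured 67.5 and 72.4 FPKM and LOXL2, a lysyl oxidase, 62.1 and 59.5 FPKM. Laminin chains LAMC1 and LAMB1 stood at 54.2 and 55.1 FPKM and 44.1 and 37.9 FPKM. Collagen genes were lower, with COL13A1 at 38.7 and 39.7 FPKM and COL18A1, the lowest member, at 7.09 and 6.57 FPKM. Tenascin-C, TNC, measured 7.33 and 10.2 FPKM.

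Protease genes and their inhibitors had 23 of 32 listed, all at or above 10 FPKM, at a median of 48.5 FPKM. Urokinase, PLAU, measured 103.1 and 81.8 FPKM and tissue plasminogen activator, PLAT, 28.7 and 30.7 FPKM. Cathepsin D, CTSD, an aspartic protease of lysosomes, measured 214 and 120.4 FPKM and cathepsin Z, CTSZ, 145 and 137 FPKM. TIMP1, an inhibitor of metalloproteases, measured 134.9 and 112.6 FPKM, 2.59-fold and 2.34-fold above the collagenase MMP1 (52.0 and 48.1 FPKM). The membrane metalloprotease MMP14 stood at 81.6 and 78.2 FPKM. The lowest of the list were ADAM10 (23.0 and 19.1 FPKM), ADAM17 (22.6 and 22.2 FPKM) and SPINT2 (21.3 and 27.5 FPKM).

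Cytokines and growth factors had 30 of 41 listed, at a median of 29.8 FPKM. NAMPT, an enzyme of NAD synthesis that is also secreted, led with 184 and 176 FPKM, before the growth factor HDGF (151 and 168 FPKM) and the cytokine MIF (87.4 and 109.5 FPKM). CSF1, the macrophage growth factor, measured 78.3 and 74.9 FPKM, and the neutrophil chemokines CXCL1 and CXCL8 73.6 and 75.4 FPKM and 58.2 and 74.4 FPKM. IL6 stood at 33.7 and 32.3 FPKM and IL11 at 27.6 and 28.9 FPKM. The granulocyte factors CSF2 and CSF3 measured 47.5 and 49.0 FPKM and 52.2 and 42.7 FPKM. At the low end were CXCL16 (4.65 and 4.37 FPKM), PDGFA (7.32 and 6.33 FPKM) and GDF15 (6.73 and 9.47 FPKM).

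Integrins had 8 of 18 listed. ITGB1, the chain that pairs with most alpha chains, measured 249 and 289 FPKM, followed by ITGA3 with 158 and 156 FPKM and ITGA6, both partners of ITGB1 as laminin receptors. All other listed chains stood under 30 FPKM, with ITGA5, the fibronectin receptor chain, at 21.0 and 22.9 FPKM, ITGAV at 25.1 and 23.3 FPKM and ITGA2, a collagen receptor chain, at 15.7 and 13.5 FPKM.

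Glycolysis, which splits glucose to pyruvate and lactate, was the most abundant of the carbon pathways listed here, with 25 of 34 genes at a median of 81.0 FPKM and 9 at or above 100 FPKM. The highest levels belonged to later steps, though not at each of them. Glucose uptake by SLC2A1 (GLUT1) measured 44.1 and 48.7 FPKM and the first kinase, HK1, 84.2 and 77.7 FPKM. GAPDH measured 738 and 782 FPKM, enolase ENO1 511 and 505 FPKM, pyruvate kinase PKM 444 and 459 FPKM and lactate dehydrogenase LDHA 358 and 369 FPKM. PGK1 and PGAM1, which act between GAPDH and enolase, were lower at 83.6 and 87.3 FPKM and 85.4 and 93.9 FPKM. Lactate export by SLC16A3 (MCT4) stood at 51.1 and 53.4 FPKM.

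**Figure D4:**
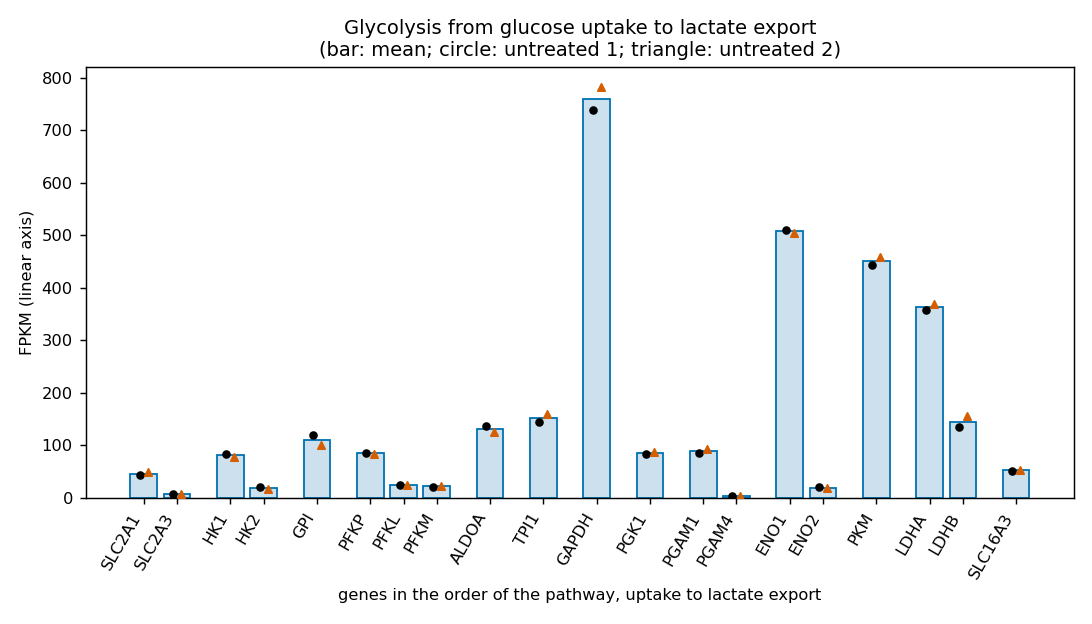
Bars give the mean of the 2 libraries in FPKM on a linear axis from 0, circles untreated 1 and triangles untreated 2, for genes in pathway order from glucose uptake to lactate export. GAPDH, ENO1, PKM and LDHA stand above all other genes drawn, and within each enzyme with several genes 1 isoform stands above the rest.

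Each glycolytic step with several listed isoforms was led by 1 of them. PFKP, the platelet-type phosphofructokinase, measured 86.1 and 84.6 FPKM, 3.53-fold and 3.38-fold above PFKL, and PFKM stood at 21.2 and 23.0 FPKM. HK1 exceeded HK2 (20.3 and 17.7 FPKM) 4.15-fold and 4.38-fold. ENO1 exceeded ENO2, the neuronal form, 24.4-fold and 27.2-fold. LDHA exceeded LDHB (134.8 and 155.8 FPKM) 2.66-fold and 2.37-fold. Of the kinases that restrain pyruvate dehydrogenase, the 2 listed were low, PDK2 at 5.73 and 10.2 FPKM and PDK3 at 3.26 and 4.30 FPKM. PDK1 had no value, so the kinases as a group were not described. PGAM4, a copy of PGAM1, was the lowest at 2.99 and 3.73 FPKM.

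Citric acid cycle genes were even in level, with 27 of 30 listed between 9.87 and 70.1 FPKM at a median of 36.5 FPKM. SDHA, the catalytic subunit of complex II, led with 72.8 and 67.3 FPKM, before the malate dehydrogenases MDH2 (mitochondrial, 62.7 and 68.8 FPKM) and MDH1 (cytosolic, 52.9 and 53.4 FPKM). Citrate synthase, CS, measured 20.2 and 20.3 FPKM. Cytosolic IDH1 stood at 12.8 and 11.9 FPKM, SUCLA2, a subunit of succinyl-CoA ligase, at 14.7 and 12.5 FPKM and malic enzyme ME2 was the lowest at 7.56 and 12.2 FPKM.

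Nuclear genes of the respiratory chain, 37 of 38 listed, had a median of 44.7 FPKM, while the mitochondrial genes for the same complexes had a median of 10246 FPKM. NDUFS5 of complex I measured 181 and 155 FPKM and the alpha subunit of ATP synthase, ATP5A1, 159 and 162 FPKM. COX6A1 of cytochrome c oxidase stood at 149 and 154 FPKM, where MT-CO2 of the same complex stood at 11853 and 12832 FPKM. UQCRFS1, the iron-sulfur protein of complex III, measured 19.8 and 20.8 FPKM, and NDUFA2 and NDUFS1 of complex I were the lowest at 13.4 and 16.7 FPKM and 13.2 and 17.8 FPKM.

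Among nucleotide and one-carbon genes, 26 of 29 were listed at a median of 41.9 FPKM. The kinase NME2, the pentose phosphate enzyme TKT and IMPDH2, which commits to guanine nucleotides, led at 109.1 and 122.8, 108.8 and 119.1, and 98.6 and 110.1 FPKM. PAICS of purine synthesis was at least 2-fold apart, at 44.9 and 119.9 FPKM. Enzymes of amino acid and folate supply stood at the low end, with ASNS at 7.5002 and 8.88 FPKM, MTHFD2 at 7.95 and 8.64 FPKM and SHMT1 at 9.49 and 10.3 FPKM.

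Lipid and sterol synthesis was near the table's median, with 26 of 29 listed at 20.8 FPKM. ELOVL5, a fatty acid elongase, measured 77.2 and 73.7 FPKM, ACLY, which makes cytosolic acetyl-CoA, 61.2 and 59.1 FPKM and FASN, fatty acid synthase, 30.6 and 34.6 FPKM. HMGCS1, an early sterol enzyme, was at the low end with 11.006 and 10.004 FPKM.

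Iron and redox genes had a median of 82.4 FPKM over 24 of 26 listed, and 10 stood at or above 100 FPKM. Ferritin mRNA far exceeded that of the transferrin receptor TFRC, which imports iron (108.1 and 117.7 FPKM), by 24.0-fold and 24.5-fold for FTL. Of the thioredoxin system, TXNRD1 measured 263.5 and 360.4 FPKM and TXN 255.5 and 237.3 FPKM, and the glutathione transferase GSTP1 157.4 and 177.3 FPKM. Glutathione synthesis genes were low, GCLC at 11.3 and 8.94 FPKM, and haem oxygenase HMOX1 was the lowest at 5.24 and 5.14 FPKM. PRDX1, a peroxiredoxin, was at least 2-fold apart, with 90.9 and 185.6 FPKM.

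Proliferation genes had 31 of 33 listed at a median of 37.5 FPKM. STMN1, stathmin, which destabilises microtubules, measured 191 and 193 FPKM, TOP2A, the topoisomerase of dividing cells, 124 and 122.5 FPKM and CCND1, cyclin D1, 103.5 and 107.3 FPKM. MKI67, the Ki-67 antigen gene, stood at 93.6 and 100.3 FPKM, and the replication helicase subunit MCM3 at 89.1 and 90.1 FPKM. CCNE1 was the lowest at 8.77 and 9.40 FPKM, after CDKN2C, a CDK inhibitor (13.7 and 12.4 FPKM), and BIRC5, survivin (16.8 and 13.5 FPKM).

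Antigen presentation genes had 22 of 26 listed. Beside B2M, HLA-B measured 150 and 186 FPKM and NT5E (CD73), which makes adenosine, 143 and 145 FPKM. CD74, the invariant chain of MHC class II, stood at 88.2 and 114.5 FPKM and HLA-DRA, a class II chain, at 55.9 and 49.8 FPKM. The checkpoint ligand CD274 (PD-L1) was the lowest at 9.47 and 9.14 FPKM, after CD276 (12.5 and 13.1 FPKM) and NLRC5 (14.9 and 14.5 FPKM), an activator of class I genes. Class II transcripts are also known from antigen-presenting cells, so the other blood markers were checked. Of 20 immune and blood genes, 1 was listed, CD68, a lysosomal glycoprotein of macrophages and other cells, at 28.7 and 29.1 FPKM. Of 18 fibroblast, endothelial and fat genes, 1 was listed, FABP4, at 0.719 and 0.489 FPKM. The part of other cells in the class II values was not tested.

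Gene families were compared over their listed members only, so a member without a value could change the order. Of 76 families, 71 had at least 2 listed members. A member was called leading if its lower library exceeded the higher library of the next and its mean was at least 2-fold higher. This held in 41 families. In 21 more the libraries did not overlap but the fold was under 2, and in 9 the order of the highest members differed between libraries. With 2 libraries an exact permutation test cannot reach a p of 0.05, and none was made. Over the 71 families the median fold of the leading member over the next was 2.42.

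**Figure D5:**
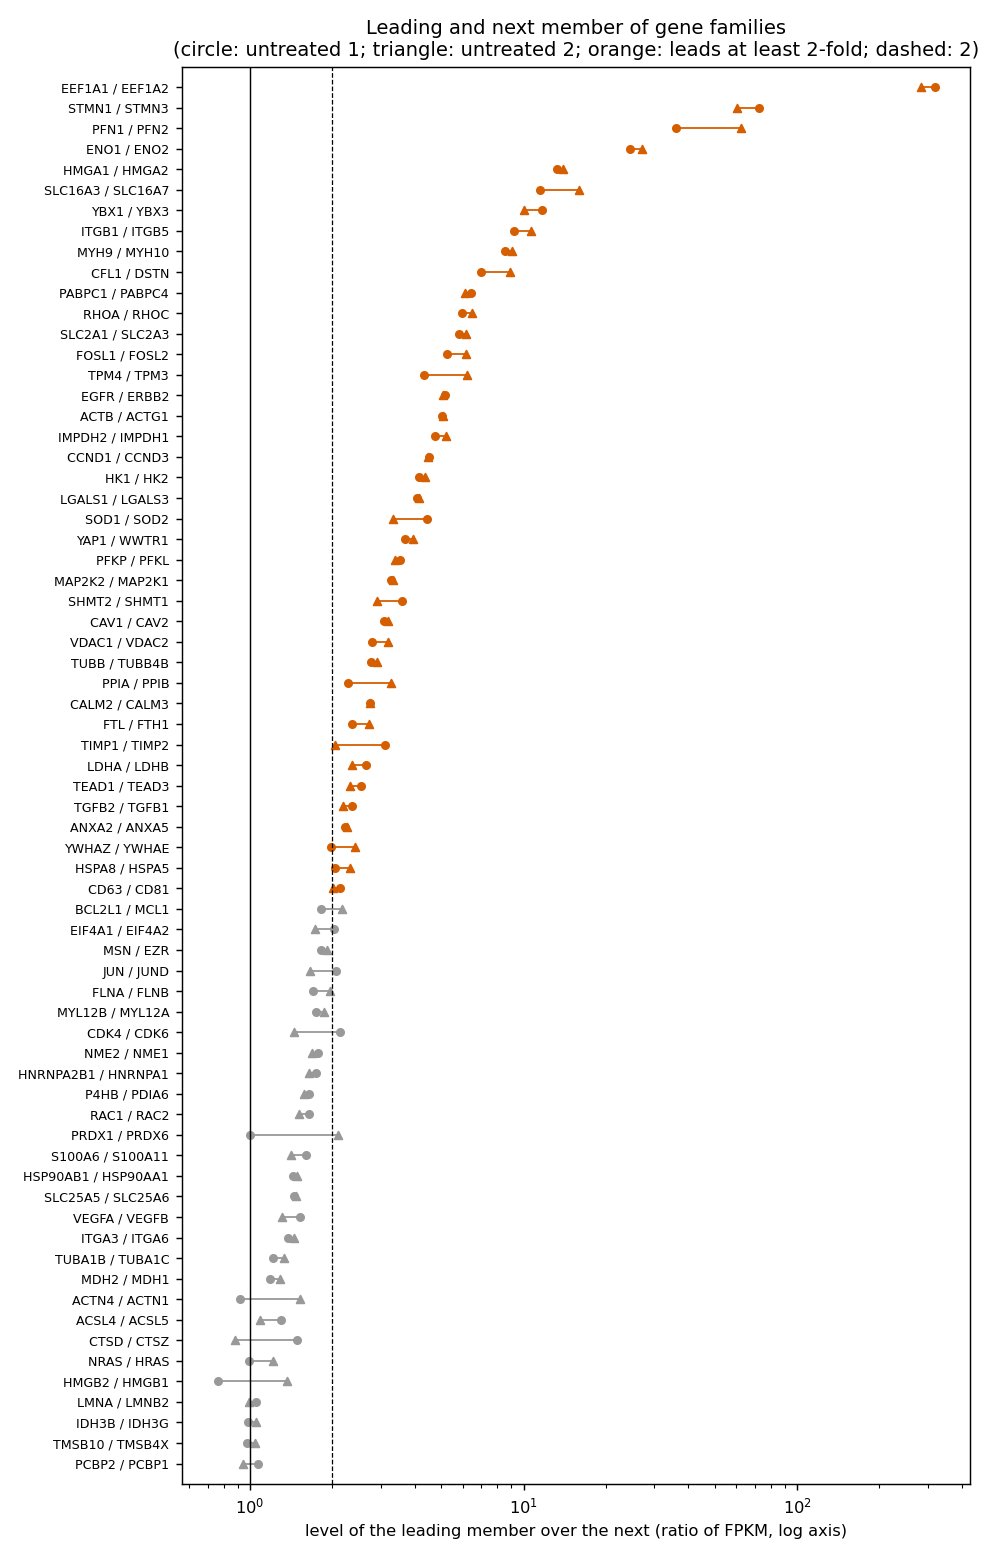
Each row gives the level of the leading member of a family over the next for the families drawn, as a ratio of FPKM on a log axis, in untreated 1 (circle) and untreated 2 (triangle). Rows in orange are families led at least 2-fold, from EEF1A1 over EEF1A2 at the top to CD63 over CD81; the 9 rows whose marks lie on both sides of 1 include TMSB10 over TMSB4X and PCBP2 over PCBP1.

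The widest gap was between EEF1A1 and EEF1A2, a form known from muscle and neurons, at 318-fold and 283-fold, with EEF1A2 at 3.62 and 4.45 FPKM. STMN1 exceeded STMN3 (2.63 and 3.20 FPKM) 72.6-fold and 60.2-fold, and PFN1 exceeded PFN2 (14.3 and 14.1 FPKM) 35.9-fold and 62.3-fold. HMGA1 exceeded HMGA2 (30.5 and 30.8 FPKM) 13.2-fold and 13.9-fold. YBX1 exceeded YBX3 (45.6 and 49.4 FPKM) 11.7-fold and 10.1-fold. Both libraries gave these families the same leader.

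Some cytoskeletal families were led at least 2-fold and others were not. ACTB exceeded ACTG1, cytoplasmic gamma actin (352 and 365 FPKM), 5.04-fold and 5.09-fold. TUBB exceeded TUBB4B (233 and 240.4 FPKM) 2.76-fold and 2.92-fold, while TUBB3, the neuronal form, measured 8.38 and 7.08 FPKM and TUBB2B 0.164 and 0.168 FPKM. Among alpha tubulins, TUBA1B (280 and 267 FPKM) and TUBA1C (232 and 200.4 FPKM) stood within 2-fold. MYH9 exceeded MYH10 (29.04 and 28.004 FPKM) 8.53-fold and 9.05-fold. TPM4 led the tropomyosins at 278 and 353 FPKM, CFL1 exceeded DSTN 6.99-fold and 8.92-fold, and RHOA (169 and 176 FPKM) exceeded RHOC 5.96-fold and 6.47-fold. RAC2, a form known from blood cells, stood at 69.4 and 73.1 FPKM, under RAC1 at 114 and 110.4 FPKM. The leading filamin, ERM and regulatory myosin light chain genes, FLNA, MSN and MYL12B, stood 1.83-fold, 1.86-fold and 1.80-fold above the next by their means, under the 2-fold limit. ACTN4 (169 and 257 FPKM) and ACTN1 (184 and 168 FPKM) changed order between libraries.

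Calcium- and sugar-binding families followed. S100A6 stood above S100A11 (411 and 440.4 FPKM), S100A10 (131.8 and 125.1 FPKM) and S100A4 (107.0 and 98.6 FPKM), with less than 2-fold between the highest pair. ANXA2, a membrane-binding partner of S100A10, measured 454 and 464 FPKM, 2.22-fold and 2.27-fold above ANXA5. LGALS1 (172 and 183 FPKM), a secreted lectin, exceeded LGALS3 4.06-fold and 4.16-fold. Of calmodulin genes, which code for the same protein, CALM2 (266.5 and 294.6 FPKM) exceeded CALM3 2.74-fold and 2.73-fold. Like CALM2, these genes named here share exons on their strand with another coding gene in GENCODE release 29, and their values may hold fragments of it: RPS10, EEF1G, MIF, LDHB, PGK1, CTSD, SPINT2, LOXL2, LMNB2, NME2, COX6A1, CS, HLA-B, RHOC and PFN2.

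Signalling and nuclear families also held both kinds. CCND1 exceeded CCND3 (23.0 and 24.0 FPKM) 4.50-fold and 4.48-fold, whereas CDK4 (53.1 and 37.8 FPKM) exceeded CDK6 (24.9 and 26.0 FPKM) 1.78-fold by their means. FOSL1 exceeded FOSL2 5.25-fold and 6.14-fold, and JUN (37.9 and 40.2 FPKM) stood above JUND (18.4 and 24.3 FPKM) and JUNB (10.2 and 11.2 FPKM). YAP1 (53.1 and 57.9 FPKM) exceeded its paralog WWTR1 (TAZ) 3.69-fold and 3.94-fold, and TEAD1 (41.0 and 43.9 FPKM) led the TEAD partners. EGFR exceeded ERBB2 5.14-fold and 5.08-fold. BCL2L1 (BCL-XL, 89.8 and 101.9 FPKM) stood above MCL1 (49.7 and 46.99 FPKM) and BCL2L2 (3.44 and 5.54 FPKM). TGFB2 (38.1 and 36.9 FPKM) exceeded TGFB1 2.36-fold and 2.18-fold.

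The pairs that could not be ordered included LMNA with LMNB2, TMSB10 with TMSB4X, and PCBP2 (101.4 and 92.9 FPKM) with PCBP1 (94.8 and 98.6 FPKM), poly(C)-binding proteins. HMGB2 (69.1 and 125.7 FPKM) and HMGB1 (90.8 and 91.9 FPKM), nonhistone chromatin proteins, also changed order, as did IDH3B and IDH3G, subunits of isocitrate dehydrogenase. Among 14-3-3 genes, YWHAZ (384.4 and 410.3 FPKM) led YWHAE (194.6 and 170.0 FPKM), and YWHAB was at least 2-fold apart between libraries, at 56.9 and 153 FPKM.

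Organelle families closed the list. SLC25A5 (172.8 and 170.8 FPKM), an exchanger of ADP and ATP, stood above SLC25A6 (119.4 and 115.6 FPKM), and SLC25A4, the muscle and heart form, at 7.97 and 8.4004 FPKM. VDAC1 (191.6 and 165.3 FPKM), the main pore of the outer mitochondrial membrane, exceeded VDAC2 2.79-fold and 3.20-fold. SHMT2, the mitochondrial form, exceeded cytosolic SHMT1 3.59-fold and 2.90-fold. CD63 (137.2 and 134.0 FPKM), a tetraspanin of endosomes and exosomes, stood 2.13-fold and 2.01-fold above CD81, the family nearest above the 2-fold limit. The family nearest under it, BCL2L1 over MCL1, had a fold of 1.98 by its means.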

How the data were processed

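RNA sequencing values of the 2 untreated libraries were used. Per the labels' protocols, RNA was selected on poly-T beads and sequenced in paired ends. The submitters' processing notes name the build hg38 and the tools HISAT2 2.0, Trimmomatic 0.36, bedtools 2.26.0 and FastQC 0.11.2; no quantifier, annotation or strand setting is given in the sources used here. Values deposited per gene were taken as FPKM, normalized by the authors. The authors' deposited ratio (fold) and p-values concern the silenced cells and were not used.

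Means, SDs, ranks, ratios and correlations were computed with Python 3.11.15, pandas 2.3.3 and scipy 1.17.1, with a pseudocount of 1 for correlations and a minimum mean of 1 FPKM for counts of genes 2-fold apart. No test was made. Exon overlap, transcript length and pseudogenes came from GENCODE release 29, in which 7695 IDs and the coordinates of 7381 genes matched. Depth is unknown. Genes named were the 30 highest nuclear genes, the 13 mitochondrial mRNAs, the 5 highest and 3 lowest of each list, family members and the 10 most discordant genes, with a few others chosen after their values were seen. Lists and members were chosen with earlier results of these data known. The code was tested on simulated data. Some listed genes are not reported here.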

Additional observations from a re-analysis of the deposited data

How the results depend on the processing

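Every alternative was planned. The correlation of 0.969 was 0.957 with a pseudocount of 0.1 and 0.967 over genes with a mean of at least 10 FPKM. The 183 genes at least 2-fold apart remained 183 in number with the median ratio set to 1, and were 137 with no filter and a pseudocount of 1 and 62 at a mean of at least 10 FPKM, where fewer genes enter. The 414 genes at or above 100 FPKM were 655 after the mitochondrially encoded mRNAs were left out and the total was restored, which raises every level; with 1 common total they were 414, and in the libraries alone 414 to 424. The mitochondrial share was 29.7% to 31.2% and the share of the 10 highest genes 27.9% to 29.4% in the libraries alone. The 41 leading family members were 54 at 1.5-fold, 43 in each library alone and 32 of 57 families without 14 families with near-identical copies. No list median in 1 library was more than 1.17-fold from its reported value. No paired analysis was possible because no groups were compared. With 2 libraries and no depth, levels under 10 FPKM are the least certain.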
